A study of Mus musculus with 16 samples.

Results

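The 10 genes described here encode channels, transporters, receptors and enzymes of resting astrocytes, the glial cells that clear transmitters, potassium and water from around neurons. They are the connexin genes Gja1 and Gjb6, the glutamate transporter genes Slc1a2 and Slc1a3, the glutamine synthetase gene Glul, the water channel gene Aqp4, the bicarbonate transporter gene Slc4a4, the receptor genes S1pr1 and Fgfr3 and the folate enzyme gene Aldh1l1. They were chosen by symbol, and each was found once among the 55359 mouse genes of the deposited table. The RNA came from mouse cerebral cortex after injection of adeno-associated virus (AAV), a vector that delivers a gene into cells, and the study concerned neuronal intranuclear inclusion disease (NIID). The study asked what polyG, a chain of glycines read from a GGC repeat, does to cortical gene expression. There were 16 libraries, 4 for each construct. ATG-GGC11 carried the short GGC repeat behind an ATG start codon, ATG-GGC100 the long repeat behind ATG, and TAG-GGC100 the long repeat with the stop codon TAG in the place of ATG. ATG-GGN100dCT carried a long GGN repeat, in which N is any base and every codon encodes glycine, and the sources used here do not spell out dCT. All groups had received a vector, and no group without one was analysed here. The promoter, the serotype, and the age, sex and strain of the mice were likewise not given, and whether each library stands for another animal is not stated.

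Astrocytes take up the glutamate that neurons release, convert it to glutamine and hand it back, and they buffer ions and water at their endfeet on blood vessels. Gap junctions join them into a network through which ions and small metabolites spread. When the brain is injured, astrocytes become reactive, raise filament proteins such as GFAP, and can change their transport and coupling genes in either direction.

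Library totals ran from 12838756 to 19131210 counts, and each of the 10 genes had between 766 and 59061 counts in a library, so all of them were tested. Each construct's row had its highest mean in the group of that construct, with 51.6 ± 14 CPM (counts relative to the library's sum; SD, n = 4) in ATG-GGC11, 1.75 ± 0.564 in ATG-GGC100, 12.6 ± 1.95 in TAG-GGC100 and 22.4 ± 11 in ATG-GGN100dCT, so construct level and construct identity cannot be told apart. The ATG-GGC100 libraries held the ATG-GGC11 construct's row at 1.78 ± 0.643 CPM, as high as their own. Differences below are log2 fold changes with their standard error (SE) from edgeR's quasi-likelihood test, fitted on all 16 libraries. A gene was called at a Benjamini-Hochberg adjusted p under 0.05 over the 17737 genes tested. Levels are FPKM, fragments per kilobase of exonic sequence scaled to the library total. In bulk cortex, fewer astrocytes and less RNA per astrocyte cannot be told apart. The median log2 fold change over all genes tested lay between -0.00324 and 0.00809 in the 6 comparisons.

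Most of the calls among the 10 genes involved ATG-GGN100dCT. Against ATG-GGC11, 4 of the 10 genes fell there (S1pr1, Gja1, Slc1a3 and Aqp4) and none rose, where 3.49% of all genes fell and 6.66% were called in either direction. The median log2 fold change of the 10 genes was -0.23, and 8 of 10 were negative. In ATG-GGC100 against ATG-GGC11, S1pr1 alone was called and it fell, with 1.3% of all genes called lower and 3.5% called in either direction, and the median of the 10 genes was -0.05. In TAG-GGC100 against ATG-GGC11 none of the 10 was called, where 0.00564% of all genes were called. There 2 of the 10 had an unadjusted p under 0.05, as did 1219 of all genes, and DESeq2 also called none of the 10 and called 42 genes in all. With library totals as scaling, 67.1% of all called genes were higher in ATG-GGN100dCT against 47.6% in the reported fit, and 74.8% against 62.8% in ATG-GGC100, where the calls among the 10 genes were S1pr1, Gja1 and Slc1a3 lower in ATG-GGN100dCT and Aqp4 higher in ATG-GGC100. All 3 of these comparisons share the ATG-GGC11 libraries.

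Between the long constructs, Aqp4 was the only one of the 10 genes called in ATG-GGC100 against TAG-GGC100, and it rose, with 4.05% of all genes called higher and 7.44% in either direction. In ATG-GGN100dCT against TAG-GGC100, S1pr1 and Gja1 fell, with 4.4% of all genes called lower, 4.3% higher and 8.69% in either direction. In ATG-GGN100dCT against ATG-GGC100, Aqp4, Gja1 and Slc1a3 fell, with 1.19% of all genes called lower, 0.857% higher and 2.05% in either direction. With library totals as scaling, the share of called genes that were higher moved from 54.5% to 70.1% in ATG-GGC100 and from 49.4% to 65.7% in ATG-GGN100dCT, both against TAG-GGC100. The medians of the 10 genes were -0.00169, -0.21 and -0.13 in these comparisons. Summed over the 10 genes, the libraries held 6331 to 6983 CPM in ATG-GGC11, 5937 to 6567 in ATG-GGC100, 5859 to 6571 in TAG-GGC100 and 5792 to 6175 in ATG-GGN100dCT. The sum is carried largely by Slc1a2 and Glul, neither of which was called in any comparison. Without any overlap of the FPKM values, S1pr1, Gja1, Slc1a3 and Slc4a4 were lower in ATG-GGN100dCT than in ATG-GGC11 and none was higher, where 5% of all genes were lower and 9.21% higher in that way. Between ATG-GGC100 and ATG-GGC11, S1pr1 was lower and Aqp4 higher without overlap, as were 3.22% and 8.09% of all genes. In ATG-GGC100 against TAG-GGC100, Gja1 and Aqp4 were higher (9.62% of all genes) and none lower (3.91%). In ATG-GGN100dCT, Gja1 and S1pr1 were lower than in TAG-GGC100 (4.76% of all genes) with none higher (8.1%), and Gja1, S1pr1, Slc1a3 and Aqp4 were lower than in ATG-GGC100 (4.38%) with none higher (3.56%). 

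**Figure D1:**
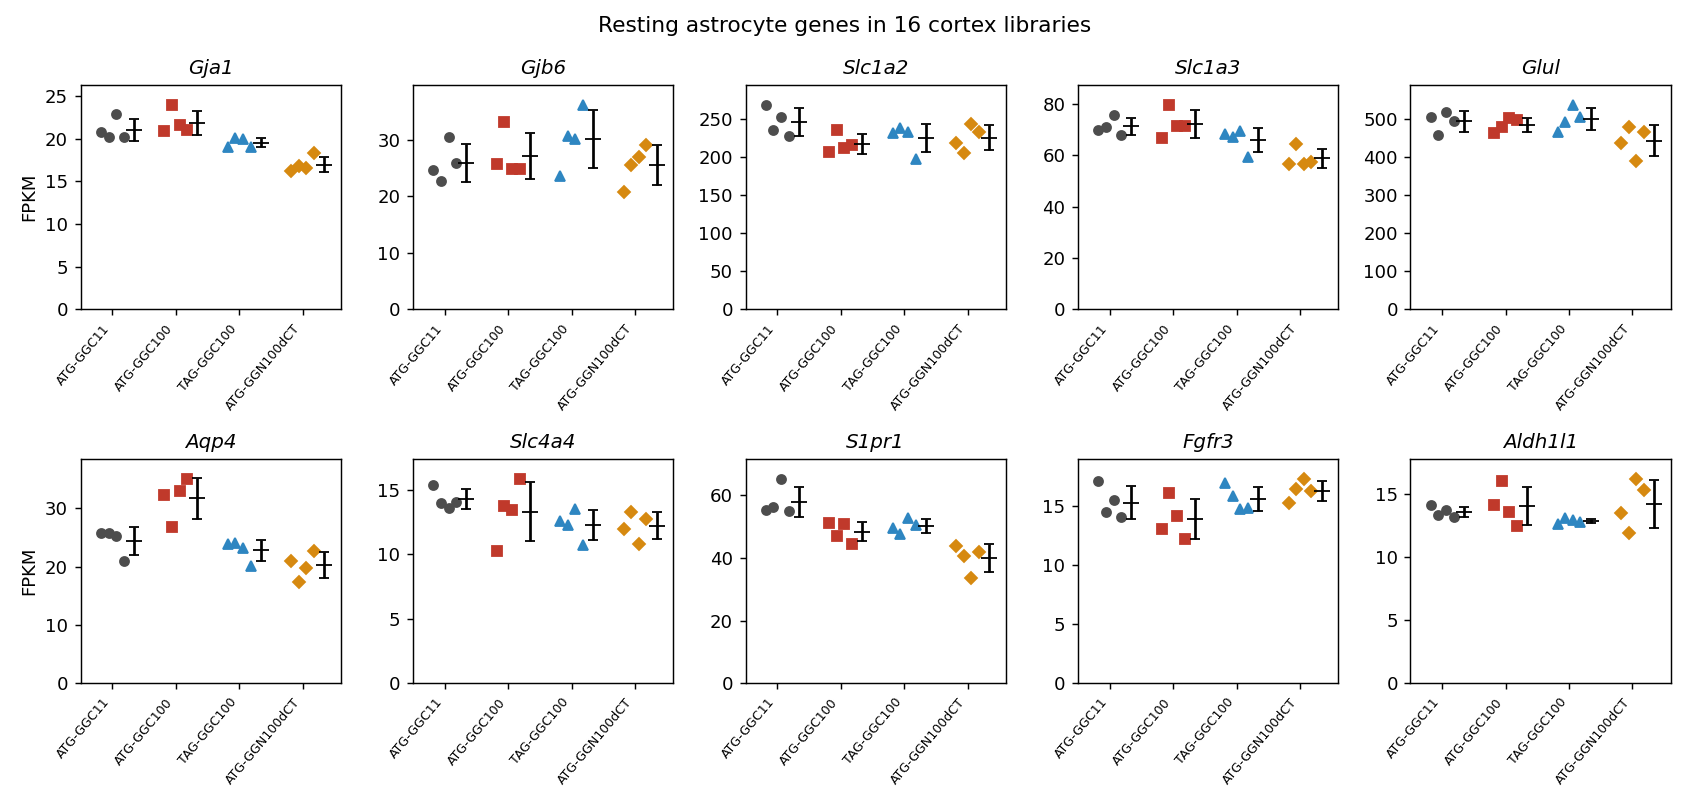
FPKM of the 10 genes in each of the 16 libraries (y axis from 0, symbols by construct group on the x axis), with the group mean and SD (n = 4) as black bars. The ATG-GGN100dCT libraries of Gja1 lie between 16.23 and 18.28 FPKM, under every other library, and the ATG-GGC100 libraries of Aqp4 lie between 26.82 and 35.03 FPKM, above every other library.

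**Figure D2:**
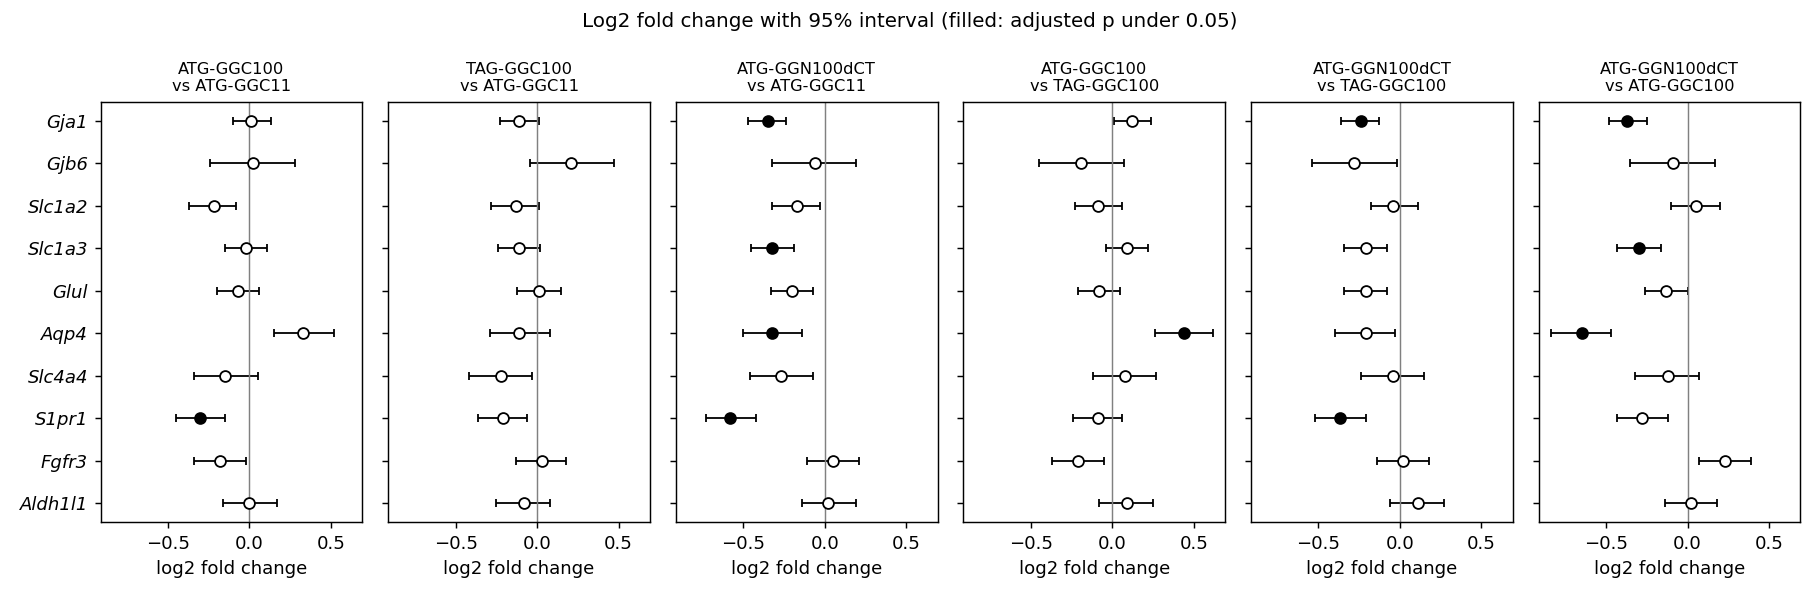
Log2 fold changes (x axis) of the 10 genes (rows) in the 6 comparisons between constructs, with bars for approximate 95% intervals of 1.96 SE and filled points for an adjusted p under 0.05. Filled points on the negative side are the 4, 2 and 3 genes lower in ATG-GGN100dCT and S1pr1 in ATG-GGC100 against ATG-GGC11, and the filled point on the positive side is Aqp4 in ATG-GGC100 against TAG-GGC100.

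Gja1 (ENSMUSG00000050953, chromosome 10, 56253426 to 56278609 on the plus strand in the deposited table, whose build is not named) encodes connexin43, the main gap junction protein of astrocytes. Its 4 libraries had 20.83, 20.2, 22.88 and 20.23 FPKM in ATG-GGC11, 20.96, 23.92, 21.61 and 21.01 in ATG-GGC100, 19.06, 20.05, 19.95 and 19.06 in TAG-GGC100, and 16.23, 16.84, 16.56 and 18.28 in ATG-GGN100dCT. Every ATG-GGN100dCT library was below every library of the other groups, and every TAG-GGC100 library was below every library of both other groups. The mean fell from 21 ± 1.26 FPKM in ATG-GGC11 to 17 ± 0.903 in ATG-GGN100dCT (SD, n = 4 in each), which gave -0.35 ± 0.06 (SE) on the log2 scale, with an edgeR adjusted p of 0.00196. Against TAG-GGC100 (19.5 ± 0.544 FPKM) the fall was smaller, -0.24 ± 0.06 (edgeR adjusted p = 0.0177), and it missed the threshold without TAG-GGC100 replicate 2 and when only the 8 libraries compared were fitted (adjusted p = 0.0508 in both). Against ATG-GGC100 (21.9 ± 1.39 FPKM) the log2 fold change was -0.37 ± 0.06 (edgeR adjusted p = 0.00173). ATG-GGC100 itself did not differ from ATG-GGC11 beyond the spread, with a log2 fold change of 0.01 ± 0.06 and a 95% interval of -0.1 to 0.13.

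Gjb6 (ENSMUSG00000040055, chromosome 14, 57360760 to 57371068, minus strand) encodes connexin30, which forms astrocyte gap junctions beside connexin43. Its levels overlapped between all groups, from 22.64 to 30.51 FPKM in ATG-GGC11, 24.78 to 33.16 in ATG-GGC100, 23.56 to 36.1 in TAG-GGC100 and 20.73 to 29.05 in ATG-GGN100dCT. It was called in none of the 6 comparisons. In ATG-GGN100dCT against ATG-GGC11 its log2 fold change was -0.06 ± 0.13, with a 95% interval of -0.32 to 0.19. The FPKM of Gjb6 divided by that of Gja1 in the same library was 1.23 ± 0.0946 in ATG-GGC11, 1.24 ± 0.105 in ATG-GGC100, 1.54 ± 0.27 in TAG-GGC100 and 1.5 ± 0.157 in ATG-GGN100dCT (mean ± SD, n = 4, given without a test). TAG-GGC100 (1.24 to 1.89) and ATG-GGN100dCT (1.28 to 1.63) both overlapped the other groups in this ratio.

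Of 12 other genes of connexins, pannexins and junction partners, 1 was called against ATG-GGC11, in ATG-GGN100dCT, where 6.66% of all genes were called, so the list's share is near that of all genes. Panx2, a pannexin gene expressed in neurons and glia, fell in ATG-GGN100dCT from 29.9 ± 3.31 to 21.5 ± 2.9 FPKM (log2 fold change -0.52 ± 0.12, SE; edgeR adjusted p = 0.0181), and the call was lost without ATG-GGN100dCT replicate 4. It also fell against TAG-GGC100 (-0.43 ± 0.12, edgeR adjusted p = 0.0351), a call lost without TAG-GGC100 replicate 2 or 4 or ATG-GGN100dCT replicate 3 or 4. The list had no call in the other 4 comparisons. Its median log2 fold change in ATG-GGN100dCT against ATG-GGC11 was -0.22.

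Slc1a3 (ENSMUSG00000005360, chromosome 15, 8663608 to 8740248, minus strand) encodes the glutamate transporter GLAST. Its libraries had 69.93, 71.06, 75.74 and 68.05 FPKM in ATG-GGC11, 66.67, 79.41, 71.31 and 71.36 in ATG-GGC100, 68.07, 67.16, 69.58 and 59.25 in TAG-GGC100, and 56.46, 64.36, 56.71 and 57.55 in ATG-GGN100dCT. Every ATG-GGN100dCT library was below every ATG-GGC11 and ATG-GGC100 library, while TAG-GGC100 replicate 4, at 59.25, lay inside the ATG-GGN100dCT range. The mean fell from 71.2 ± 3.27 to 58.8 ± 3.76 FPKM between ATG-GGC11 and ATG-GGN100dCT (log2 fold change -0.32 ± 0.07, SE; edgeR adjusted p = 0.00943). Against ATG-GGC100 (72.2 ± 5.29 FPKM) the difference was -0.30, again lower in ATG-GGN100dCT (edgeR adjusted p = 0.0228). That call was lost without ATG-GGC100 replicate 2 or 3 or ATG-GGN100dCT replicate 1, 3 or 4 (adjusted p up to 0.0735) and in the fit of only the 8 libraries compared (0.074). Against TAG-GGC100 (66 ± 4.62 FPKM) the log2 fold change of -0.21 ± 0.07 was not called (edgeR adjusted p = 0.0575), and it was called without ATG-GGC100 replicate 2, TAG-GGC100 replicate 4 or ATG-GGN100dCT replicate 2 (lowest adjusted p = 0.0212) and by DESeq2 (0.0274).

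Slc1a2 (ENSMUSG00000005089, chromosome 2, 102489004 to 102621129, plus strand) encodes GLT-1, which carries most glutamate uptake in the forebrain. Its libraries had 267.38, 235.07, 252.71 and 227.52 FPKM in ATG-GGC11, 205.97, 235.72, 211.93 and 215.19 in ATG-GGC100, 231.24, 237.7, 231.86 and 196.96 in TAG-GGC100, and 218.1, 205.23, 242.76 and 232.84 in ATG-GGN100dCT. All groups overlapped, and the ATG-GGC11 mean of 246 ± 17.9 FPKM stood above means of 217 ± 12.9, 224 ± 18.5 and 225 ± 16.5 in the long constructs. The largest difference, -0.22 ± 0.07 on the log2 scale in ATG-GGC100 against ATG-GGC11, was not called (edgeR adjusted p = 0.114), and in ATG-GGN100dCT the difference of -0.17 ± 0.07 was not called either (adjusted p = 0.161). The ratio of Slc1a2 to Slc1a3 within a library was 3.45 ± 0.248 in ATG-GGC11, 3.01 ± 0.0563 in ATG-GGC100, 3.4 ± 0.0996 in TAG-GGC100 and 3.84 ± 0.469 in ATG-GGN100dCT, given without a test. All 4 ATG-GGC100 libraries had a ratio of 2.97 to 3.09, below the lowest library of any other group, 3.19.

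Glul (ENSMUSG00000026473, chromosome 1, 153775690 to 153785469, plus strand) encodes glutamine synthetase, the enzyme that turns glutamate and ammonia into glutamine. It had the highest level of the 10 genes in every library. The libraries had 503.37, 456.37, 518.13 and 493.9 FPKM in ATG-GGC11, 462.55, 477.32, 502.25 and 496.08 in ATG-GGC100, 465.07, 490.74, 535.2 and 504.94 in TAG-GGC100, and 437.33, 479.36, 389.54 and 465.56 in ATG-GGN100dCT. ATG-GGN100dCT replicates 1 and 3 were below every library of the other groups, and replicates 2 and 4 were not. The log2 fold change of -0.20 ± 0.07 against ATG-GGC11 (443 ± 39.7 against 493 ± 26.3 FPKM) was not called (edgeR adjusted p = 0.0781), and it was called without ATG-GGN100dCT replicate 2 (0.0335) and by DESeq2 (0.0438). Against TAG-GGC100 it was -0.21 ± 0.07 (edgeR adjusted p = 0.0535), which was called without ATG-GGC11 replicate 2, TAG-GGC100 replicate 1 or ATG-GGN100dCT replicate 2 (lowest adjusted p = 0.0213) and under 3 other settings (lowest 0.0198). Of 12 other genes that handle glutamate and glutamine in neurons and glia, none was called in ATG-GGN100dCT against ATG-GGC11. There 6.66% of all genes were called. In ATG-GGC100 against TAG-GGC100, 2 of the 12 fell and none rose, where 3.39% of all genes fell and 4.05% rose. The list's median log2 fold change was -0.14 there, with 10 of 12 negative, and the count of 2 ran from 0 to 3 when a library was left out. Against ATG-GGC11, 1 of the 12 fell in ATG-GGC100, where 1.3% of all genes fell. In ATG-GGC100, Gls2, a mitochondrial glutaminase gene, fell from 8.19 ± 0.729 to 5.98 ± 0.943 FPKM (log2 fold change -0.50 ± 0.12; edgeR adjusted p = 0.0244), a call lost without ATG-GGC11 replicate 1 or 3 or ATG-GGC100 replicate 2 or 3.

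Gja1 and Slc1a3 fell together in ATG-GGN100dCT, and the bases just before their transcription starts are shown for that reason. The 250 bases before each annotated start were read from the RefSeq promoter table (GRCm38.p6) for 8 of the 10 genes, all but S1pr1 and Aqp4, as 10 windows. They were searched on both strands for the letters TGANTCA (AP-1), TGACGTCA (CRE), TTCNNNGAA (STAT) and TGGCNNNNNGCCA (NFI), which do not overlap in these windows. Capitals mark the matches, TGAGTCA at bases -19 to -13 before the Gja1 start and TTCCAAGAA at bases -96 to -88 before the Slc1a3 start, with -1 the last base before the start.
Gja1, chr10:56377050-56377299, plus strand: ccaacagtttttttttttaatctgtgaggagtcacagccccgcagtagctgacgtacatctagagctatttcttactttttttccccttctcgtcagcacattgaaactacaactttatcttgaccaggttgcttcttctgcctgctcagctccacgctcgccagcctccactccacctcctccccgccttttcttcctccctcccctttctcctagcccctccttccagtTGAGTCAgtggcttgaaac
Slc1a3, chr15:8710808-8711057, minus strand: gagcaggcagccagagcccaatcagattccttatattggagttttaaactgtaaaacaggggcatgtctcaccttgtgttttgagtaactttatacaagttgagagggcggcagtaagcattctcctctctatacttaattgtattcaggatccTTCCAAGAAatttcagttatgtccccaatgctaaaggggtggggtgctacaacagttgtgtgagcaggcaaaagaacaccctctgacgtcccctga
The other 8 windows held no match. S1pr1 and Aqp4, which were also called lower in ATG-GGN100dCT against ATG-GGC11, did not enter the search. Whether matches go with the falls was therefore not tested. Of 32851 windows of this length, 6.75% held the AP-1 letters, 7.02% the STAT letters, 1.55% the CRE letters and 0.703% the NFI letters. The Gja1 window was 50% G and C and the Slc1a3 window 44.8%, with 6 and 2 CpG dinucleotides.

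Aqp4 (ENSMUSG00000024411, chromosome 18, 15522553 to 15544039, minus strand) encodes the water channel of astrocyte endfeet. Its mean was highest in ATG-GGC100 and lowest in ATG-GGN100dCT. The libraries had 25.86, 25.7, 25.35 and 20.89 FPKM in ATG-GGC11, 32.27, 26.82, 32.95 and 35.03 in ATG-GGC100, 23.87, 24.01, 23.17 and 20.16 in TAG-GGC100, and 20.95, 17.41, 19.85 and 22.7 in ATG-GGN100dCT. Every ATG-GGC100 library was above every library of the other groups, while the other groups overlapped each other. The mean of 31.8 ± 3.5 FPKM in ATG-GGC100 stood against 22.8 ± 1.8 in TAG-GGC100, a rise of 0.44 ± 0.09 on the log2 scale (edgeR adjusted p = 0.00697). Against ATG-GGC11 (24.4 ± 2.38 FPKM) the log2 fold change was 0.33 ± 0.09 with an adjusted p of 0.0511, just short of the threshold in edgeR's test. It was called without ATG-GGC100 replicate 2, TAG-GGC100 replicate 4 or ATG-GGN100dCT replicate 2 (lowest adjusted p = 0.0185) and under 7 of the 9 other settings (lowest 0.0152).

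In ATG-GGN100dCT the mean of Aqp4 was 20.2 ± 2.21 FPKM, which was lower than in ATG-GGC100 by a log2 fold change of -0.65 ± 0.09 (edgeR adjusted p = 0.000538) and lower than in ATG-GGC11 by -0.32 ± 0.09 (adjusted p = 0.0463). The second of these calls was at the edge of the test. It was lost without any one of 12 of the 16 libraries, among them each ATG-GGN100dCT library (adjusted p up to 0.108), and under 6 of the 9 other settings, library totals as scaling (0.0755) and limma on log2 FPKM (0.104) included. Against TAG-GGC100 the difference of -0.21 ± 0.09 was not called (edgeR adjusted p = 0.161). The ratio of Aqp4 to Gja1 within a library was 1.46 ± 0.237 in ATG-GGC100 and 1.16 ± 0.113, 1.17 ± 0.082 and 1.19 ± 0.112 in ATG-GGC11, TAG-GGC100 and ATG-GGN100dCT. The ratio of Aqp4 to Slc1a3 was 0.444 ± 0.0717 in ATG-GGC100 against 0.343 ± 0.0285, 0.345 ± 0.0109 and 0.347 ± 0.0538 in the same order, again without a test. ATG-GGC100 replicate 2 lay inside the range of the other groups in both ratios, at 1.12 and 0.338.

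**Figure D3:**
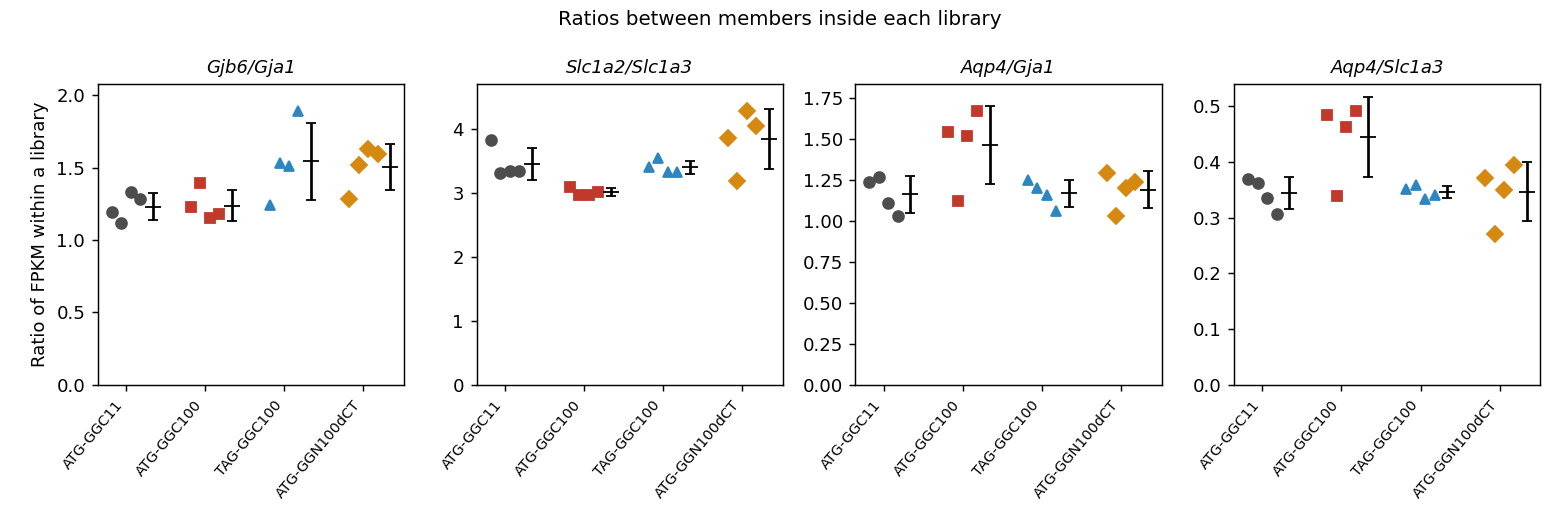
FPKM of 1 gene divided by that of another in the same library (y axis from 0), by construct group on the x axis, with group mean and SD (n = 4) as black bars. The ratio of Slc1a2 to Slc1a3 lies at 2.97 to 3.09 in the ATG-GGC100 libraries, below every other library, and 3 of 4 ATG-GGC100 libraries stand above all others in the ratios of Aqp4.

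Slc4a4 (ENSMUSG00000060961, chromosome 5, 89034345 to 89387512, plus strand) encodes NBCe1, a sodium bicarbonate cotransporter that sets astrocyte pH. Its levels ran from 13.62 to 15.42 FPKM in ATG-GGC11, 10.24 to 15.85 in ATG-GGC100, 10.71 to 13.5 in TAG-GGC100 and 10.84 to 13.3 in ATG-GGN100dCT. Every TAG-GGC100 and every ATG-GGN100dCT library was below every ATG-GGC11 library, though neither difference was called. The log2 fold changes were -0.22 ± 0.10 (edgeR adjusted p = 0.694) and -0.27 ± 0.10 (adjusted p = 0.109). In TAG-GGC100 against ATG-GGC11, 4 of the 10 genes were lower without overlap (Gja1, S1pr1, Aldh1l1 and Slc4a4), and none of the 4 was called, where 1.96% of all genes were lower without overlap and 2.14% higher.

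Of 16 other genes for potassium, water, chloride and bicarbonate handling in astrocytes, 3 fell and 1 rose in ATG-GGN100dCT against ATG-GGC11. Over all genes 3.49% fell and 3.17% rose there, and the list's median log2 fold change was -0.15. Mlc1, a membrane protein of astrocyte endfeet, fell from 56.9 ± 2.24 to 47 ± 3.99 FPKM (-0.32 ± 0.06, SE; edgeR adjusted p = 0.00471). Kcnj10, the potassium channel Kir4.1, fell from 40.4 ± 7.04 to 29.4 ± 3.68 FPKM (-0.51 ± 0.11, adjusted p = 0.0141). Leaving out 1 library left 2 or 3 genes lower, and the count of 1 higher became 0 without ATG-GGC11 replicate 2, 3 or 4 or ATG-GGN100dCT replicate 3 or 4. In ATG-GGC100 against ATG-GGC11 none of the 16 was called, with Mlc1 at 0.01 ± 0.06 and Kcnj10 at -0.28 ± 0.11 (adjusted p = 0.197). Dag1 and Dtna, which belong to the complex that anchors aquaporin-4 at the endfoot, had log2 fold changes of -0.05 ± 0.07 and -0.04 ± 0.07 there, and were named after their values were seen. Hepacam, the adhesion partner of Mlc1, had 26.7 ± 1.54, 26.5 ± 3.13, 24.8 ± 1.5 and 26.8 ± 1.58 FPKM in the 4 groups.

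S1pr1 (ENSMUSG00000045092, chromosome 3, 115504082 to 115508721, minus strand) encodes a receptor for the lipid sphingosine 1-phosphate, which astrocytes and endothelial cells express. It had the largest fall of the 10 genes in ATG-GGN100dCT against ATG-GGC11. The libraries had 55.18, 56.13, 65.13 and 54.93 FPKM in ATG-GGC11, 51.05, 47.07, 50.85 and 44.58 in ATG-GGC100, 49.66, 47.68, 52.84 and 50.42 in TAG-GGC100, and 43.85, 40.52, 33.7 and 41.9 in ATG-GGN100dCT. The groups formed 3 levels without overlap, ATG-GGC11 on top, ATG-GGC100 and TAG-GGC100 together, and ATG-GGN100dCT lowest. The mean fell from 57.8 ± 4.89 to 40 ± 4.41 FPKM in ATG-GGN100dCT, which gave -0.58 ± 0.08 (SE) on the log2 scale with an edgeR adjusted p of 0.000268, or 0.671 of the ATG-GGC11 level in the fit. It also fell against TAG-GGC100 (50.2 ± 2.13 FPKM; -0.37 ± 0.08, adjusted p = 0.00917). Against ATG-GGC100 (48.4 ± 3.13 FPKM) the difference of -0.28 ± 0.08 was not called (edgeR adjusted p = 0.0688), and it was called with no filter on low counts (0.0221) and by DESeq2 (0.0346).

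In ATG-GGC100 against ATG-GGC11, S1pr1 fell with a log2 fold change of -0.30 and an SE of 0.08 (edgeR adjusted p = 0.0336). This call was lost without ATG-GGC11 replicate 1, 2 or 3 or ATG-GGC100 replicate 2, 3 or 4 (adjusted p up to 0.11), with limma on log2 FPKM (0.0937 and 0.0951 by pseudocount), with library totals as scaling (0.0704) and with the replicate number as a block (0.0539). In TAG-GGC100 the log2 fold change was -0.21 ± 0.08 and was not called (edgeR adjusted p = 0.552), although no library overlapped those of ATG-GGC11. The difference between ATG-GGC100 and TAG-GGC100 was -0.09 ± 0.08, with a 95% interval of -0.24 to 0.06. Among 9 endothelial markers the libraries summed to 169 to 207 CPM in ATG-GGC11, 191 to 211 in ATG-GGC100, 166 to 202 in TAG-GGC100 and 188 to 243 in ATG-GGN100dCT. The part of endothelial cells in the S1pr1 result was not tested. Cldn5, a tight junction gene of brain endothelium, had 10.1 ± 1.55, 14.8 ± 1.77, 11.5 ± 3 and 12.2 ± 3.1 FPKM in that order. In ATG-GGN100dCT against ATG-GGC11, 2 of the 9 rose (Slco1a4 and Ly6c1) and none fell, where 3.17% of all genes rose and 3.49% fell.

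Of 14 other genes for the receptors, synthesis, export and breakdown of sphingosine 1-phosphate, 12 were tested. In ATG-GGN100dCT against ATG-GGC11, Plpp3, a phosphatase of lipid phosphates that is abundant in astrocytes, fell from 86.2 ± 7.96 to 69.2 ± 2.53 FPKM (-0.36 ± 0.07, SE; edgeR adjusted p = 0.00683). Mfsd2b, an exporter of the lipid in blood cells, rose from 0.318 ± 0.0597 to 0.84 ± 0.228 FPKM (1.35 ± 0.24, adjusted p = 0.00276). The receptor genes S1pr3 and S1pr5 had log2 fold changes of -0.06 ± 0.15 and -0.25 ± 0.19 there and were named after their values were seen. With 1 call each way there, the list had a median of -0.01, and over all genes 3.49% fell and 3.17% rose. None of the 12 was called in ATG-GGC100 or TAG-GGC100 against ATG-GGC11, where 3.5% and 0.00564% of all genes were called. In ATG-GGC100 against TAG-GGC100, 1 rose and 1 fell (4.05% and 3.39% of all genes). In ATG-GGN100dCT, 1 rose against TAG-GGC100 (4.3% of all genes), and 2 rose and 1 fell against ATG-GGC100 (0.857% and 1.19%).

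Fgfr3 (ENSMUSG00000054252, chromosome 5, 33879018 to 33894412, plus strand) encodes a fibroblast growth factor (FGF) receptor of astrocytes. It was called in no comparison, and ATG-GGN100dCT had its highest mean, 16.3 ± 0.846 FPKM, beside 15.3 ± 1.36 in ATG-GGC11, 13.9 ± 1.67 in ATG-GGC100 and 15.6 ± 1.03 in TAG-GGC100. Its libraries ran from 14.04 to 17.09, 12.21 to 16.08, 14.74 to 16.95 and 15.19 to 17.25 FPKM in ATG-GGC11, ATG-GGC100, TAG-GGC100 and ATG-GGN100dCT, which overlapped. The difference between ATG-GGN100dCT and ATG-GGC100 was 0.23 ± 0.08 on the log2 scale (edgeR adjusted p = 0.146). In ATG-GGN100dCT against ATG-GGC11 it was 0.05 ± 0.08, with a 95% interval of -0.11 to 0.21.

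Of 16 other FGF ligands, receptors and feedback targets, 3 fell in ATG-GGN100dCT and 2 in ATG-GGC100 against ATG-GGC11, where 3.49% and 1.3% of all genes fell, and none rose. Spry4, a feedback inhibitor that FGF signalling induces, fell from 3.91 ± 0.137 FPKM in ATG-GGC11 to 2.38 ± 0.651 in ATG-GGC100 (-0.76 ± 0.16, SE; edgeR adjusted p = 0.0087) and to 2.58 ± 0.389 in ATG-GGN100dCT (-0.64 ± 0.16, adjusted p = 0.0216). Spry2 and the phosphatase gene Dusp6, feedback inhibitors too, fell in ATG-GGN100dCT, from 26.3 ± 0.568 to 20 ± 3.91 FPKM (adjusted p = 0.0192) and from 27.2 ± 2.91 to 17.1 ± 4.72 FPKM (adjusted p = 0.0479). The ligand gene Fgf9 fell in ATG-GGC100, from 4.77 ± 0.449 to 3.57 ± 0.514 FPKM (adjusted p = 0.0284). In ATG-GGN100dCT the count of 3 became 1 without replicate 3 and 0 without replicate 4 of that group. In ATG-GGC100 the count of 2 became 1 without ATG-GGC11 replicate 1, 2 or 3 or ATG-GGC100 replicate 1 or 2. Against TAG-GGC100, where 3.39% of all genes fell in ATG-GGC100 and 4.4% in ATG-GGN100dCT, 5 of the 16 fell in ATG-GGC100, with Spry4, Fgf9, Spred1 and Etv4 at the smallest adjusted p, and 5 in ATG-GGN100dCT, with Etv5, Spry4, Spred1 and Etv4 at the smallest. Both comparisons share the TAG-GGC100 libraries. Those counts ran from 1 to 6 and from 0 to 6 when a library was left out.

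Aldh1l1 (ENSMUSG00000030088, chromosome 6, 90463409 to 90577185, plus strand) encodes a dehydrogenase of formyl-tetrahydrofolate and is used as a general astrocyte marker. It was called in no comparison. Group means were 13.6 ± 0.413 FPKM in ATG-GGC11, 14.1 ± 1.49 in ATG-GGC100, 12.9 ± 0.177 in TAG-GGC100 and 14.2 ± 1.92 in ATG-GGN100dCT. The libraries ran from 13.21 to 14.15, 12.49 to 16.04, 12.68 to 13.09 and 11.91 to 16.21 FPKM, the spread being wider in ATG-GGC100 and ATG-GGN100dCT. The log2 fold change in ATG-GGN100dCT against ATG-GGC11 was 0.02 ± 0.08, with a 95% interval of -0.14 to 0.19. Of 13 other folate one-carbon genes, Gldc, the glycine decarboxylase gene of astrocytes, fell in ATG-GGN100dCT against ATG-GGC11 from 6.33 ± 0.616 to 4.48 ± 0.458 FPKM (-0.54 ± 0.08, SE; edgeR adjusted p = 0.000791), and the other 12 were not called. Over all genes 3.49% fell there and 6.66% were called in either direction, so the list's share is near that of all genes. Mthfd2 alone was called in ATG-GGC100 against ATG-GGC11, where 1.3% of all genes fell and 3.5% were called in either direction. It fell from 2.48 ± 0.313 to 1.8 ± 0.232 FPKM (edgeR adjusted p = 0.0493), a call lost whichever single library of those groups was left out.

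The order of the 10 genes by mean level over the 16 libraries was Glul (480 FPKM), Slc1a2 (228), Slc1a3 (67), S1pr1 (49.1), Gjb6 (27.2), Aqp4 (24.8), Gja1 (19.9), Fgfr3 (15.2), Aldh1l1 (13.7) and Slc4a4 (13). From Glul down to Gjb6, each gene stood above the next in 16 of 16 libraries. Gjb6 stood above Aqp4 in 9 of 16 and Aldh1l1 above Slc4a4 in 10 of 16, so neither pair is separated by its spread. Aqp4 stood above Gja1 in 16 of 16, Gja1 above Fgfr3 in 15 and Fgfr3 above Aldh1l1 in 14.

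As a description over the 16 libraries, which share the 4 groups, log2 CPM of Gja1 and Slc1a3 had the highest correlation of all pairs, r = 0.89, and 0.56 after each group's mean was removed. S1pr1 and Glul had r = 0.77 (0.54 within groups) and Gja1 and S1pr1 0.73 (0.26 within groups). Aqp4 and Fgfr3 had the lowest, -0.6, and -0.14 within groups. The order of pairs differed within groups, where Gja1 and Gjb6 had the highest r, 0.69, and Aldh1l1 and Glul the lowest, -0.47. The median over all pairs was 0.28, and 0.15 within groups. Among the 5 genes most like the mean profile of the 10, out of 7772 tested genes with a mean of at least 5 FPKM, were Gpr37l1 (r = 0.911), Asrgl1 (0.87), Bc1 (0.858) and Plpp3 (0.848), with 0.73, 0.85, 0.54 and 0.67 within groups. The mean profile, as log2 CPM centred on each gene's mean, lay between -0.17 and -0.08 in the ATG-GGN100dCT libraries and between -0.04 and 0.17 in the other 12.

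Among 26 other markers of astrocytes, 8 fell and none rose in ATG-GGN100dCT against ATG-GGC11, with a median log2 fold change of -0.14. Over all genes 3.49% fell and 3.17% rose in that comparison. Pla2g7, a lipase gene, fell from 40.8 ± 4.66 to 30.6 ± 1.16 FPKM (-0.46 ± 0.07, SE; edgeR adjusted p = 0.00137). The orphan receptor gene Gpr37l1 fell from 74.6 ± 6.48 to 58.2 ± 4.62 FPKM (-0.40 ± 0.07, adjusted p = 0.00331). Dio2, which activates thyroid hormone, fell from 22.4 ± 2.64 to 13.3 ± 1.32 FPKM (-0.80 ± 0.15, adjusted p = 0.0074), and Acsbg1, an acyl-CoA synthetase gene, from 39.4 ± 2.1 to 33.2 ± 1.19 FPKM (-0.29 ± 0.06, adjusted p = 0.00529). Aldoc, at 251 ± 13.3 and 247 ± 17 FPKM, and the astrocyte transcription factor gene Sox9, at 6.74 ± 1.07 and 6.8 ± 1.37 FPKM, were not called there. With ATG-GGC100 against ATG-GGC11, 3 of the 26 fell (Acsbg1, Dio2 and Ppp1r3g), with a median of -0.01, where 1.3% of all genes fell. That count was 1 whichever ATG-GGC11 library was left out. None was called in TAG-GGC100 against ATG-GGC11. The count of 8 stayed between 7 and 9 when any library was left out.

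Of 16 other solute transporter genes of astrocytes, 6 fell and none rose in ATG-GGN100dCT against ATG-GGC11 (median -0.15). Over all genes 3.49% fell and 3.17% rose there. Slc6a11, the GABA transporter GAT-3, fell from 34.3 ± 1.45 to 23.8 ± 2.89 FPKM (-0.57 ± 0.11, SE; edgeR adjusted p = 0.00896), and Slc25a18, a mitochondrial glutamate carrier, from 30.4 ± 3.61 to 22.3 ± 2.05 FPKM (-0.49 ± 0.11, adjusted p = 0.0116). Slc39a12, a zinc importer, fell from 15 ± 1.29 to 12.3 ± 0.772 FPKM, and Slc7a10, a serine exchanger, from 13.6 ± 0.91 to 10.6 ± 1.05 FPKM (adjusted p = 0.0125 and 0.0126). In ATG-GGC100 against ATG-GGC11, 3 fell, Slco1c1 and Slc7a10 among them, and the urea transporter gene Slc14a1 rose from 2.2 ± 0.417 to 5.73 ± 0.351 FPKM (1.33 ± 0.16, adjusted p = 6.4e-05). Over all genes 1.3% fell and 2.2% rose in that comparison. None of the 16 was called in TAG-GGC100 against ATG-GGC11.

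**Figure D4:**
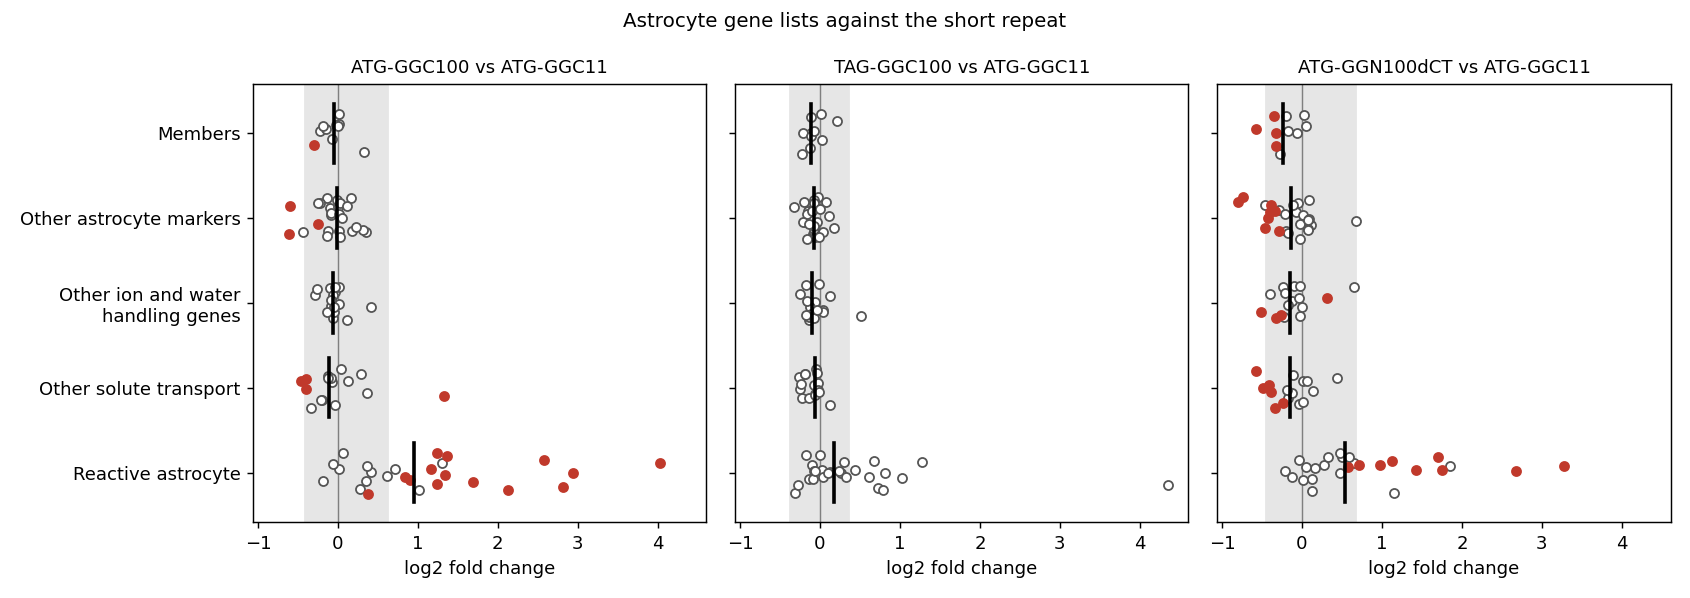
Log2 fold changes (x axis) against ATG-GGC11, the short repeat, of the 10 genes and of 4 other astrocyte gene lists (rows), 1 point a gene, red where the adjusted p was under 0.05 and open otherwise, with the list median as a black line. The grey band holds the middle 90% of all genes tested, from -0.447 to 0.678 in ATG-GGN100dCT, and the reactive list has medians of 0.95 in ATG-GGC100 and 0.53 in ATG-GGN100dCT, where the 10 genes have -0.05 and -0.23.

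Reactive astrocyte genes rose in both groups with the ATG start and a long repeat. Of 28 listed, 26 were tested, and 14 rose in ATG-GGC100 and 9 in ATG-GGN100dCT against ATG-GGC11, where 2.2% and 3.17% of all genes rose, with none lower and none called in TAG-GGC100. The count of 9 became 4 without ATG-GGC11 replicate 2 and 5 without ATG-GGN100dCT replicate 3 or 4. Gfap, the filament gene that marks reactive astrocytes, had 42.8 ± 9.47 FPKM in ATG-GGC11, 193 ± 22.5 in ATG-GGC100, 40 ± 4.92 in TAG-GGC100 and 96.9 ± 42.1 in ATG-GGN100dCT, where it ran from 46.6 to 140. Against ATG-GGC11, ATG-GGC100, with the highest Gfap mean, had 1 of the 10 genes called lower, where 1.3% of all genes were. ATG-GGN100dCT had 4 called lower, where 3.49% of all genes were. A link between Gfap and the 10 genes was not tested. Gfap did not pass the test between ATG-GGN100dCT and ATG-GGC100 (log2 fold change -1.0 ± 0.27, SE; edgeR adjusted p = 0.0853).

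Markers of some other cells, hepatocytes and microglia among them, moved with the groups, and those of others had few calls or none. Of 12 hepatocyte genes, 11 were tested and 10 rose in ATG-GGN100dCT against each other group. Over all genes 3.17%, 4.3% and 0.857% rose there against ATG-GGC11, TAG-GGC100 and ATG-GGC100. The libraries of ATG-GGN100dCT summed to 49.9 to 58.6 CPM over the 12, and those of the other groups to 1.99 to 10.7. Alb had 9.93 ± 0.669 FPKM in ATG-GGN100dCT and at most 0.025 as a mean elsewhere, and Fgb, Serpina3k and Ahsg had no count in any library of the other groups. Liver also expresses Glul and Aldh1l1, and the hepatocyte markers were higher in the group in which S1pr1, Gja1, Slc1a3 and Aqp4 were lower. The part of this RNA in the results of the 10 genes was not tested.

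In ATG-GGC100, where Aqp4 was highest, 6 of 10 microglia markers rose against ATG-GGC11 and none fell, where 2.2% of all genes rose. The 10 markers summed to 588 to 743 CPM in ATG-GGC100 against 324 to 480 in the libraries of the other groups. Of 8 meningeal fibroblast markers, 2 rose there (Lum and Col1a2), with sums of 92.6 to 162 CPM in ATG-GGC100 and 36.9 to 98 elsewhere. Of 10 neuron markers, 1 was called against ATG-GGC11, Nefl, which fell in ATG-GGN100dCT from 114 ± 1.6 to 72.7 ± 14.2 FPKM (edgeR adjusted p = 0.00156). Over all genes 3.49% fell in that comparison. Rbfox3, a nuclear protein gene of neurons, had 50.7 ± 0.227, 48 ± 1.28, 49.5 ± 2.23 and 52.2 ± 2.23 FPKM in the 4 groups. Of 9 oligodendrocyte markers none was called against ATG-GGC11. Over all genes 3.5% were called there in ATG-GGC100, 0.00564% in TAG-GGC100 and 6.66% in ATG-GGN100dCT. The markers' median log2 fold changes were -0.22, -0.3 and -0.32 in that order, with 7, 9 and 9 of the 9 negative. Mbp, a myelin gene, had 320 ± 51.7, 278 ± 25.1, 273 ± 50.6 and 291 ± 77.7 FPKM in the 4 groups. Markers of striatal projection neurons, a neighbouring region, were called in no comparison, and their sum ran from 463 to 1531 CPM over the libraries. Of 5 red blood cell genes, 2 fell in ATG-GGN100dCT against ATG-GGC11 (Hba-a2 and Hbb-bt), where 3.49% of all genes fell. Their sums were 6.45 to 37.9 against 49.4 to 108 CPM. The part of these cells in the results of the 10 genes was not tested.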

How the data were processed

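Cortex RNA of 16 libraries was measured. Per the labels' protocols, poly(A) RNA was isolated from total RNA and primed with random primers, with no strand-marking step named. The submitters' processing notes name FastQC 0.10.1, cutadapt 1.9.1, GRCm39 and mm10, and the aligner and counter are not given in the sources used here. Per the file headers and values, the deposited table holds the authors' raw counts per gene beside the authors' FPKM values, which were recovered from counts, exonic lengths and library totals within 0.005. Rows of the 4 construct sequences held at most 0.00714% of the counts of any library and did not enter the tests. Genes overlapping the 10 had at most 0.693 FPKM.

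Counts were filtered with edgeR's filterByExpr (minimum count 10), given TMM factors and tested by edgeR 4.0.16 under R 4.3.3 (robust quasi-likelihood, two-sided) in 1 fit of all 16 libraries on the group. The common biological coefficient of variation was 0.112. P-values were adjusted by the Benjamini-Hochberg method over all 17737 genes within each of the 6 comparisons, and they measure only the spread between these libraries, which may be technical. The procedure was tested on simulated data with planted changes larger than most of those reported for the 10 genes, so that test does not cover changes this small. Alternatives were limma 3.58.1 on log2(FPKM + 1) or log2(FPKM + 0.1), other filters, other scalings, DESeq2 1.42.0, leaving out each library, blocking on the replicate number and a fit restricted to the 8 libraries of a comparison. The 10 genes and all other lists were chosen with earlier results of these data known. From each other list, up to 4 called genes with the smallest adjusted p in a comparison were named, plus a set of markers whatever they did, and other names are said to have been chosen later. Some genes that this rule would name are not reported here, though the counts of their lists include them. The genes most like the 10 were the 5 with the highest Pearson r with their mean profile.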

Additional observations from a re-analysis of the deposited data

Results flagged for a closer look

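In 5 of the 40 sets of 4 libraries examined (10 genes in 4 groups), 1 library stood apart from the other 3 of its group by more than Dixon's critical value of 0.829 of the group's range, which chance gives in about 1 of 20 sets. Gjb6 had 33.16 FPKM in ATG-GGC100 replicate 2, above the other 3. S1pr1 had 65.13 FPKM in ATG-GGC11 replicate 3, above the other 3, and without it the difference in ATG-GGC100 against ATG-GGC11 was no longer called (adjusted p = 0.11 in edgeR's fit) while the fall in ATG-GGN100dCT was (0.00141). Slc1a2 had 196.96 FPKM in TAG-GGC100 replicate 4, below the other 3. Slc1a3 had 64.36 FPKM in ATG-GGN100dCT replicate 2, above the other 3, and without that library its difference from TAG-GGC100 was called. Aqp4 had 20.89 FPKM in ATG-GGC11 replicate 4, below the other 3, and without it Aqp4 was not called in ATG-GGC100 against ATG-GGC11 (edgeR adjusted p = 0.179 in place of 0.0511) and was called in ATG-GGN100dCT (0.0268).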

How the results depend on the processing

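Under 25 other settings, 1440 log2 fold changes of the 10 genes kept their side of the threshold, 36 lost a call, 24 gained one and none reversed past the threshold. The falls of S1pr1, Gja1 and Slc1a3 in ATG-GGN100dCT against ATG-GGC11, of S1pr1 against TAG-GGC100, of Aqp4 and Gja1 against ATG-GGC100, and the rise of Aqp4 in ATG-GGC100 against TAG-GGC100 were called in every setting run. In ATG-GGC100 against ATG-GGC11 the count of 1 called gene became 2 with no filter on low counts, 2 with at least 1 FPKM in 4 libraries, 2 with DESeq2, 2 with only the 8 libraries compared and 0 with the replicate number as a block, and 0 to 2 when a library was left out. With limma on log2 FPKM and with library totals as scaling it stayed at 1, but the gene called was Aqp4, higher, in place of S1pr1, lower. In ATG-GGN100dCT against TAG-GGC100 the count of 2 became 4 with DESeq2, 3 with no filter on low counts and 3 with median-ratio scaling. It became 1 with only the 8 libraries compared and 1 to 4 when a library was left out. The cause was not tested. The counts of 4 and 3 in ATG-GGN100dCT against ATG-GGC11 and ATG-GGC100 became 3 to 4 and 2 to 3 when a library was left out. Under the 9 other settings they ran from 3 to 5 and from 2 to 4, with 5 and 4 by DESeq2. Same-numbered libraries deviated from their group means with r of -0.206 to 0.193, so the numbers were not taken as pairs, and with the block 3, 1, 2 and 3 of the 10 genes were called in ATG-GGN100dCT against ATG-GGC11, ATG-GGC100 against TAG-GGC100, and ATG-GGN100dCT against TAG-GGC100 and ATG-GGC100, with 0 in TAG-GGC100 against ATG-GGC11. Over all genes, leaving out a library gave 386 to 1834 calls in place of 1181 in ATG-GGN100dCT against ATG-GGC11, 307 to 766 in place of 621 in ATG-GGC100 against ATG-GGC11, 526 to 1655 in place of 1320 in ATG-GGC100 against TAG-GGC100, 515 to 2123 in place of 1542 in ATG-GGN100dCT against TAG-GGC100 and 165 to 688 in place of 363 in ATG-GGN100dCT against ATG-GGC100. With only the 8 libraries compared the first, the fourth and the fifth of these had 703, 634 and 181 calls, and the fifth had 695 with DESeq2 and 556 with no filter. The 1 call in TAG-GGC100 against ATG-GGC11 became 22 with no filter, 22 with only 8 libraries, 42 with DESeq2, 2 with the block and up to 25 without a library. Counts of the other lists under these settings were added after the data were examined. Over all settings the 8 astrocyte markers lower in ATG-GGN100dCT against ATG-GGC11 numbered 7 to 9, the 6 solute transporters 4 to 6, the 3 ion and water genes 1 to 4 and the 9 reactive genes higher 3 to 9.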
